A study of Mus musculus with 28 samples.

Results

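The unfolded protein response and the integrated stress response were followed through 10 genes, *Hspa5*, *Xbp1*, *Dnajb9*, *Herpud1*, *Sdf2l1*, *Atf4*, *Ddit3*, *Trib3*, *Asns*, and *Chac1*, in the livers of mice with nonalcoholic steatohepatitis (NASH) treated with vehicle, obeticholic acid (OCA), or INT-787. The genes were chosen by name, as genes of the ER chaperone, XBP1, ATF4, and CHOP branches. All 10 were found among the 21935 genes of the count table, and all 10 were among the 12580 genes with enough counts to be tested. The mice were male, of the B6.V-Lepob/JRj strain, 5 weeks old on arrival, and every mouse, vehicle mice included, lacked leptin (Lep ob/ob) and was obese. All had eaten the AMLN diet, high in cholesterol, fat, and fructose, for 14 weeks and were then dosed by mouth once a day for 2 weeks. Vehicle was given to 10 mice, OCA to 9 at 30 mg/kg, and INT-787 to 9 at the same dose. OCA and INT-787 both activate FXR, the nuclear receptor for bile acids, and the study compared them on hepatic gene expression. Each comparison is therefore between treatments within this model, and no mice on a normal diet or with functional leptin were analysed here.

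The ER folds secreted and membrane proteins, and liver cells secrete much of the protein in plasma. When unfolded proteins build up, 3 sensors in the ER membrane respond. IRE1 splices the *Xbp1* transcript, so that a transcription factor for folding, degradation, and secretory genes is made, and ATF6 is cut to release a transcription factor for chaperones. PERK phosphorylates eIF2, which lowers protein synthesis in general and raises the translation of ATF4. Other kinases that sense amino acid shortage, viral RNA, or heme shortage act on the same eIF2, and this shared pathway is the integrated stress response. ATF4 raises genes of amino acid synthesis and transport as well as *Ddit3*, which codes for CHOP. A count per gene shows neither the splicing of *Xbp1* nor the phosphorylation of eIF2 nor the translation of *Atf4*, so the transcripts described here are those of the pathway's components and targets.

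These factors act through known DNA sites, and the promoters of the 10 genes that hold the letters of one are shown so that the values can be read beside them. The 300 bases around each RefSeq start (250 before and 50 after it, GRCm38.p6) were searched on both strands for 4 motifs. The ER stress response element (ERSE, CCAAT and CCACG with 9 bases of any kind between them) and the ERSE-II element (ATTGG and CCACG with 1 base between them), which share the letters CCACG, are read by ATF6 and XBP1. The UPRE core (TGACGTG) is read by XBP1 and ATF6, and the C/EBP-ATF site (TGATGNAA) is read by ATF4 and CHOP. Of all 32817 promoters in the table, 0.119% held the ERSE, 0.0366% the ERSE-II, 2.01% the UPRE core, and 3.97% the C/EBP-ATF site. Of the 10 genes, *Hspa5* held the ERSE and the UPRE core, *Herpud1* the ERSE-II and a C/EBP-ATF site, and *Asns*, *Chac1*, and *Trib3* a C/EBP-ATF site. The capitals below mark these letters. The *Hspa5* sequence is at chr2:34771920-34772069 on the plus strand, the *Herpud1* sequence at chr8:94386279-94386428 (plus), the *Asns* sequence at chr6:7693210-7693359 (minus), and the *Chac1* sequence at chr2:119350992-119351141 (plus). For *Trib3*, the 30 bases around the site, which lies just after the start, are at chr2:152344028-152344057 (minus).
Hspa5: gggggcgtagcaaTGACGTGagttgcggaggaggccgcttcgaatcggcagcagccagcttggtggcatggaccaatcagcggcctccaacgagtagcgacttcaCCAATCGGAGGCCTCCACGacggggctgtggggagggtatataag
Herpud1: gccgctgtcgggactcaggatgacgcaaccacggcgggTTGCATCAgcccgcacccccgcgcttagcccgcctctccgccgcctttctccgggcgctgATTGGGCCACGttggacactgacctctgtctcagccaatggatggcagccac
Asns: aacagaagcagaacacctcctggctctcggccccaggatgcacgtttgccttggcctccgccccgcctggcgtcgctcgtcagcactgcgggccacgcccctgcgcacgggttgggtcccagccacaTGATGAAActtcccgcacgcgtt
Chac1: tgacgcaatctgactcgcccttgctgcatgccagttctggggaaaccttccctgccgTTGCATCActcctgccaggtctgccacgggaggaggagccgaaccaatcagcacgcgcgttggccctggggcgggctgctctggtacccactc
Trib3: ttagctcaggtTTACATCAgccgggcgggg

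In *Hspa5* the UPRE core began 157 bases and the ERSE 65 bases before the start. The ERSE-II of *Herpud1* began 52 bases before its start, and its C/EBP-ATF site, on the opposite strand, 112 bases before. The C/EBP-ATF site began 23 bases before the start in *Asns* and, on the opposite strand, 193 bases before it in *Chac1* and 15 bases after it in *Trib3*. A match of letters shows neither binding nor use in liver. The windows of *Xbp1*, *Dnajb9*, *Sdf2l1*, *Atf4*, and *Ddit3* held none of these letters, from which nothing follows about the factors.

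Messenger RNA was sequenced from whole liver, 1 library per mouse, and the number of reads per gene was deposited. Totals per mouse ranged from 1009593 (vehicle replicate 6) to 22421506, with a median of 14864947 and a next lowest total of 9313260. Vehicle replicate 6 therefore adds little on genes with few reads. In vehicle replicate 5, counts were high for genes whose exons overlap those of an opposite-strand neighbour: over 28 such gene pairs the median ratio of observed to expected counts was 1.48, against 0.277 to 0.555 in the other 27 mice. Values are in CPM (read counts scaled to a common total) with TMM-scaled library totals, as mean ± SD, and fold changes are on the log2 scale with their SE. A gene counted as changed at a Benjamini-Hochberg adjusted p of at most 0.05 in edgeR's quasi-likelihood test over the 12580 genes. Hepatocyte markers were abundant in every mouse (*Alb* from 48545 to 169588 CPM). Because whole liver was sequenced, fewer cells of a type and less RNA per cell cannot be told apart.

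With INT-787, 3 of the 10 genes changed relative to vehicle. *Herpud1* and *Trib3* rose and *Chac1* fell, beside 19.6% of all tested genes changed in this comparison (10.2% higher and 9.48% lower). With OCA, 2 of the 10 changed, *Herpud1* and *Asns*, both upward, beside 6.6% of all genes (4.15% higher and 2.45% lower). Between the drugs, *Sdf2l1* alone differed and was lower with INT-787, beside 5.38% of all genes (2.19% higher and 3.19% lower with INT-787). Under upper-quartile normalization the share of higher genes among those changed went from 51.7% to 37.5% with INT-787 and from 62.9% to 52.3% with OCA. The background between the drugs rests partly on OCA replicate 8, without which 443 genes rather than 677 differed between the drugs. The number at an unadjusted p under 0.05 was 6 of 10 for INT-787, 6 of 10 for OCA, and 2 of 10 between the drugs, beside 32.3%, 18.5%, and 18.9% of all tested genes. The median log2 fold change of the 10 genes was 0.24 with INT-787 and 0.23 with OCA, and that of all tested genes was -0.0010 and 0.018. Both drugs were compared with the same vehicle mice, so these values are not independent of each other. Without vehicle replicates 5 and 6, the numbers were 3, 1, and 1 of 10.

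**Figure D1:**
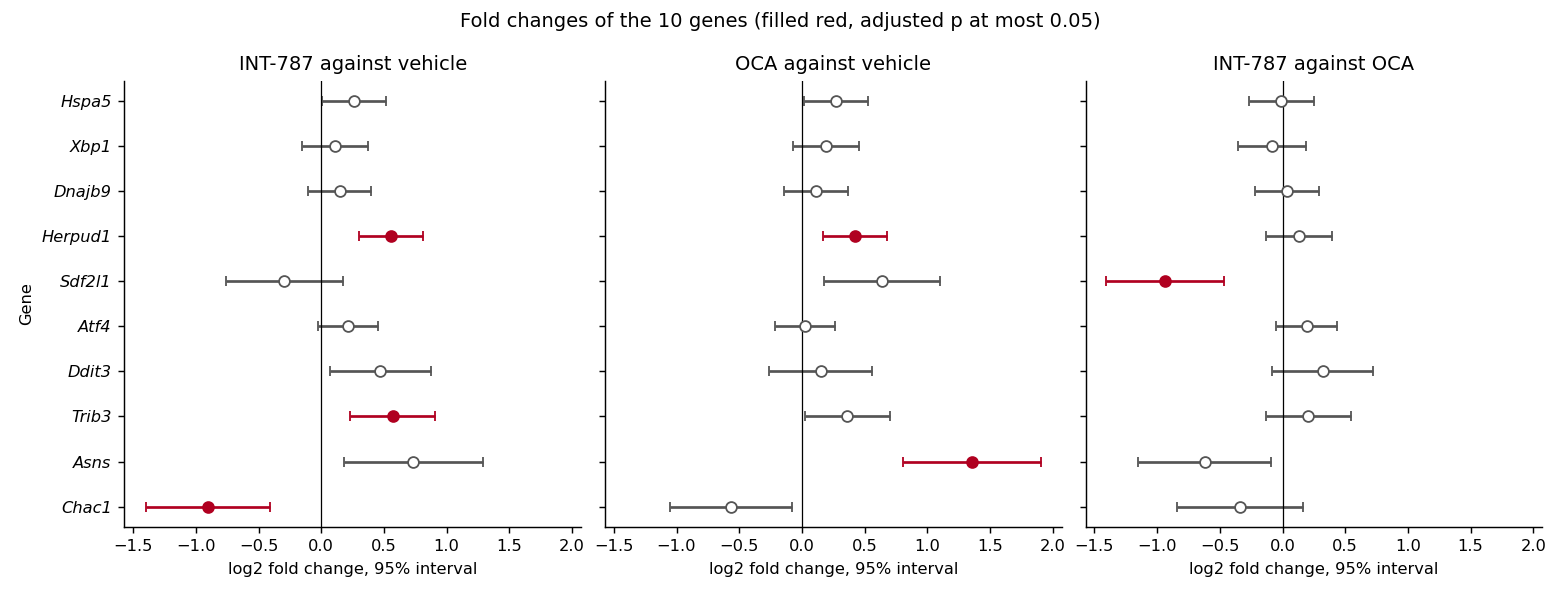
Log2 fold change of each of the 10 genes (points, with 95% intervals) for each drug against vehicle and for the drugs against each other, with filled red points for genes at an adjusted p of at most 0.05. *Herpud1*, *Trib3*, and *Chac1* are filled for INT-787, *Herpud1* and *Asns* for OCA, and *Sdf2l1* for the difference between the drugs.

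*Hspa5*, *Herpud1*, and *Sdf2l1* act in the ER itself. *Hspa5* (ENSMUSG00000026864, chr2:34771970-34777547, plus strand, GRCm38) codes for BiP, the major HSP70 chaperone of the ER, which also holds the 3 sensors inactive. Its level was lowest 422, median 506, and highest 605 CPM in vehicle mice, 467, 606, and 850 CPM with OCA, and 398, 607, and 908 CPM with INT-787. Thus 5 of 9 mice of each drug lay above the highest vehicle mouse, and 1 INT-787 mouse lay below the lowest. The log2 fold change was 0.26 (SE 0.12, 95% interval 0.0073 to 0.51, adjusted p = 0.14) with INT-787 and 0.27 (0.020 to 0.52, adjusted p = 0.22) with OCA, and neither passed the test. The spread between mice was wider with the drugs, with a coefficient of variation of 12.4% in vehicle mice, 22.36% with OCA, and 23.3% with INT-787, a difference that was not tested.

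*Herpud1* (ENSMUSG00000031770, chr8:94386438-94395377, plus strand), an ER membrane protein that helps assemble the machinery that degrades misfolded proteins, rose with both drugs. Its lowest, median, and highest values were 240, 440, and 500 CPM in vehicle mice, 441, 517, and 695 CPM with OCA, and 399, 611, and 694 CPM with INT-787. The groups overlapped, but 7 of 9 INT-787 mice and 6 of 9 OCA mice lay above the highest vehicle mouse. The means were 404 ± 85.9 (n = 10), 540 ± 84.0 (n = 9), and 592 ± 104 CPM (n = 9). *Herpud1* was 1.47-fold higher with INT-787 (log2 0.55, SE 0.12, adjusted p = 0.0016) and 1.34-fold higher with OCA (log2 0.42, SE 0.12, adjusted p = 0.035). The rise with INT-787 passed under every alternative run. That with OCA kept its direction but did not pass without OCA replicate 1 (adjusted p = 0.060), 3 (0.071), or 9 (0.085) or without vehicle replicate 5 (0.065), 8 (0.060), or 9 (0.071).

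*Sdf2l1* (ENSMUSG00000022769, chr16:17130138-17132383, minus strand), an ER lumen protein that works with BiP and its DNAJ partners, was the gene that set the drugs apart. Its lowest, median, and highest values were 7.97, 15.2, and 35.3 CPM in vehicle mice, 20.7, 24.2, and 38.2 CPM with OCA, and 8.95, 10.99, and 29.5 CPM with INT-787. All 9 OCA mice lay above the vehicle median, and 8 of 9 INT-787 mice lay below the lowest OCA mouse, the exception being INT-787 replicate 8. The means were 17.2 ± 7.94 CPM with vehicle, 26.6 ± 6.65 CPM with OCA, and 13.9 ± 6.62 CPM with INT-787. *Sdf2l1* was 1.91-fold lower with INT-787 than with OCA (log2 -0.93, SE 0.23, 95% interval -1.40 to -0.46, adjusted p = 0.013). Against vehicle, the log2 fold change was 0.64 with OCA (0.18 to 1.10, adjusted p = 0.090) and -0.29 with INT-787 (-0.76 to 0.17, adjusted p = 0.41), so neither drug passed on its own. Among the alternatives that took no account of replicate number, the OCA value passed without vehicle replicate 10, the highest vehicle mouse (log2 0.82, adjusted p = 0.012), without INT-787 replicate 8 (adjusted p = 0.044), and with limma-voom (adjusted p = 0.027).

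*Xbp1* and *Dnajb9* belong to the IRE1 branch. *Xbp1* (ENSMUSG00000020484, chr11:5520659-5525893, plus strand) had lowest, median, and highest values of 114, 146, and 238 CPM in vehicle mice, 163, 176, and 292 CPM with OCA, and 140, 187, and 206 CPM with INT-787. Its log2 fold changes were 0.11 with INT-787 (95% interval -0.16 to 0.37, adjusted p = 0.62) and 0.19 with OCA (-0.074 to 0.45, adjusted p = 0.48). The groups overlapped over most of their ranges, although all 9 OCA mice lay above the vehicle median. *Dnajb9* (ENSMUSG00000014905, chr12:44205559-44210326, minus strand) codes for ERdj4, a BiP partner and classical XBP1 target. It averaged 49.9 ± 10.97 CPM with vehicle, 53.7 ± 13.5 CPM with OCA, and 55.1 ± 6.60 CPM with INT-787. The log2 fold changes of *Dnajb9*, 0.15 and 0.11 with INT-787 and OCA, had 95% intervals of -0.11 to 0.40 and -0.14 to 0.36 and did not pass (adjusted p = 0.46 and 0.72).

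**Figure D2:**
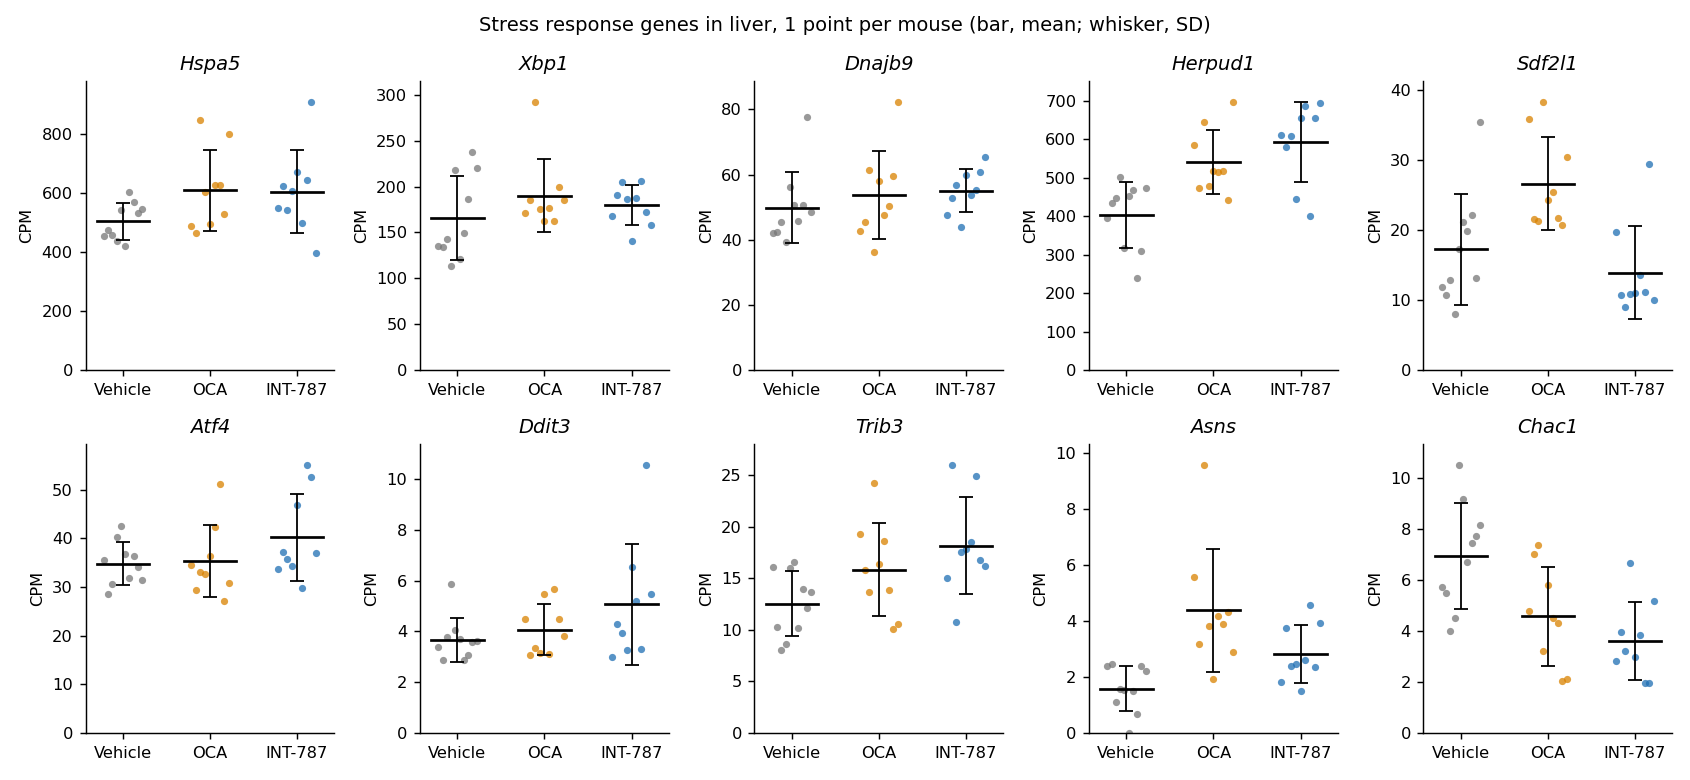
Level of each of the 10 genes in CPM (vertical axis, from 0) with 1 point per mouse in the vehicle (n = 10), OCA (n = 9), and INT-787 (n = 9) groups, the mean as a bar, and the SD as a whisker. The ranges of the groups overlap for every gene, with 8 of 9 INT-787 mice below all OCA mice for *Sdf2l1* and 8 of 9 OCA mice above all vehicle mice for *Asns*.

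In the integrated stress response, *Trib3* rose and *Chac1* fell with INT-787, *Asns* rose with OCA, and *Atf4* and *Ddit3* passed with neither drug. *Atf4* (ENSMUSG00000042406, chr15:80255184-80257541, plus strand) ranged from 28.6 to 42.6 CPM (median 34.9) in vehicle mice, from 27.2 to 51.2 CPM (median 33.1) with OCA, and from 29.8 to 55.0 CPM (median 36.9) with INT-787. Its log2 fold change was 0.21 with INT-787 (95% interval -0.026 to 0.46, adjusted p = 0.21) and 0.024 with OCA (-0.22 to 0.27, adjusted p = 0.96), the latter turning to -0.0083 under upper-quartile normalization. *Ddit3* (ENSMUSG00000025408, chr10:127290774-127296288, plus strand), which codes for the proapoptotic transcription factor CHOP, was at 3.68 ± 0.87 CPM with vehicle, 4.06 ± 1.01 CPM with OCA, and 5.06 ± 2.37 CPM with INT-787. One INT-787 mouse, replicate 8, reached 10.5 CPM, and the medians were closer, at 3.60, 3.80, and 4.31 CPM. Its log2 fold change under INT-787 was 0.47 (SE 0.20, adjusted p = 0.094) and, of the alternatives run, passed only without vehicle replicate 4, the highest vehicle mouse (log2 0.57, adjusted p = 0.040). *Ddit3* shares 81 bp of exon with *Mars* on the opposite strand.

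*Trib3* (ENSMUSG00000032715, chr2:152337422-152344032, minus strand), a pseudokinase induced by ATF4 and CHOP that restrains both ATF4 and AKT signaling, rose with INT-787. Its lowest, median, and highest values were 8.01, 12.9, and 16.6 CPM in vehicle mice, 10.1, 15.8, and 24.3 CPM with OCA, and 10.7, 17.6, and 25.98 CPM with INT-787. Of the INT-787 mice, 6 of 9 lay above the highest vehicle mouse, as did 3 of 9 OCA mice. *Trib3* was 1.48-fold higher with INT-787 than with vehicle (log2 0.57, SE 0.17, adjusted p = 0.014) and passed under every alternative run. With OCA the log2 fold change was 0.36 (0.023 to 0.70, adjusted p = 0.23). The difference between the drugs, 0.21 (-0.13 to 0.54, adjusted p = 0.56), did not pass.

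*Asns* (ENSMUSG00000029752, chr6:7675169-7693254, minus strand), which codes for asparagine synthetase, the enzyme that makes asparagine from aspartate and glutamine, rose with OCA. It was scarce in this liver, with lowest, median, and highest values of 0, 1.55, and 2.46 CPM in vehicle mice, 1.94, 3.91, and 9.58 CPM with OCA, and 1.51, 2.46, and 4.56 CPM with INT-787. The vehicle mouse at 0 was replicate 6, where 3 counts correspond to 2.76 CPM, so a level like that of the other vehicle mice could not have been told from 0 there. Of the OCA mice, 8 of 9 lay above the highest vehicle mouse. *Asns* was 2.56-fold higher with OCA (log2 1.36, SE 0.27, 95% interval 0.81 to 1.91, adjusted p = 0.0010), and the value was 1.13 (adjusted p = 0.0040) without OCA replicate 3, the highest mouse. Under INT-787 its log2 fold change was 0.74 (0.18 to 1.29, adjusted p = 0.055). This value lay at the threshold: it passed with DESeq2 (adjusted p = 0.044), limma-voom (0.044), and only the 2 groups in the fit (0.041), and without vehicle replicate 1 (0.044), 2 (0.043), or 9 (0.049), OCA replicate 3 (0.033) or 5 (0.047), or INT-787 replicate 1 (0.044) or 5 (0.035). It did not pass in 7 of 10 other settings or in 21 of 28 fits with 1 mouse left out. The highest adjusted p among these was 0.13. The direct difference between the drugs, -0.62 (-1.15 to -0.091), had an adjusted p of 0.17.

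*Chac1* (ENSMUSG00000027313, chr2:119351229-119354381, plus strand), a glutathione-degrading enzyme induced by ATF4, fell with INT-787. Its lowest, median, and highest values were 3.98, 7.08, and 10.5 CPM in vehicle mice, 2.05, 4.50, and 7.39 CPM with OCA, and 1.95, 3.21, and 6.65 CPM with INT-787. All 9 INT-787 mice lay below the vehicle median, and 7 of 9 lay below the lowest vehicle mouse. *Chac1* was 1.87-fold lower with INT-787 (log2 -0.91, SE 0.24, adjusted p = 0.0079) and passed under every alternative run. With OCA the log2 fold change was -0.57 (-1.05 to -0.077, adjusted p = 0.18), with 3 of 9 mice below the lowest vehicle mouse. Of the 4 genes with the C/EBP-ATF letters near their start, *Herpud1* and *Trib3* rose and *Chac1* fell with INT-787, beside 19.6% of all tested genes that changed. *Asns* had a log2 fold change of 0.74 that did not pass. With OCA, *Herpud1* and *Asns* rose, beside 6.6% of all tested genes that changed, and *Trib3* (0.36) and *Chac1* (-0.57) did not pass. The part of these letters in the changes was not tested.

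At matched dose and time the 10 genes allowed 10 comparisons of INT-787 with OCA, with p adjusted over all 12580 genes. *Sdf2l1* passed. For the other 9 the difference did not pass, which does not show that the drugs act alike, and the intervals set its limits. They were narrow for *Hspa5* (-0.27 to 0.25), *Dnajb9* (-0.22 to 0.29), *Xbp1* (-0.35 to 0.19), *Herpud1* (-0.13 to 0.39), and *Atf4* (-0.053 to 0.44). They were wider for *Trib3*, *Ddit3* (-0.083 to 0.72), *Chac1* (-0.84 to 0.16), and *Asns*, the scarcer genes.

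Per kilobase of exon, the level in vehicle mice was highest for *Herpud1* (173 CPM per kb), followed by *Hspa5* (119), *Xbp1* (51.1), *Dnajb9* (19.6), *Sdf2l1* (15.6), *Atf4* (14.8), *Trib3* (5.91), *Chac1* (4.24), *Ddit3* (2.15), and *Asns* (0.58). The ER and IRE1 branch genes thus lay above the ATF4 targets. Of the neighbours in this order, *Dnajb9* and *Sdf2l1*, and *Sdf2l1* and *Atf4*, lay closer to each other than the larger of their SDs between vehicle mice.

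The other genes of the pathway were read from 9 further lists, and the genes named from them are those with the highest or lowest fold change among the changed ones. Counts are read beside the share of all tested genes that passed in the same comparison, and a count near that share is no result about the list. Of 20 tested ER chaperones and folding enzymes, 6 rose with OCA and 4 with INT-787, beside 4.15% and 10.2% of all tested genes that rose, and 19.6% that changed in either direction with INT-787. The list median was 0.29 with OCA and 0.13 with INT-787. *Ero1lb*, an oxidase that drives disulfide bond formation, rose from 35.8 ± 6.11 CPM with vehicle to 66.3 ± 19.3 CPM with OCA (log2 0.89, SE 0.16, adjusted p = 0.00037) and 72.1 ± 22.8 CPM with INT-787 (log2 1.01, SE 0.16, adjusted p = 2.65e-05). *Txndc5*, a protein disulfide isomerase, rose with OCA (log2 0.42, SE 0.064, adjusted p = 3.55e-05) and with INT-787 (0.32, adjusted p = 0.00046). *Hyou1*, an ER chaperone of the HSP110 family, rose with INT-787 (0.40, adjusted p = 0.042), a call lost in 17 of 39 alternative fits. *Pdia6*, another disulfide isomerase that also restrains IRE1, averaged 236 ± 46.4 CPM with vehicle, 313 ± 55.5 CPM with OCA, and 232 ± 55.4 CPM with INT-787, and the drugs differed (INT-787 against OCA, log2 -0.43, adjusted p = 0.045), a call lost in 20 of 39. Without vehicle replicates 5 and 6, 3 genes of the list passed with OCA and 3 with INT-787.

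Of 18 genes of ER-associated degradation, 4 rose with OCA and 4 with INT-787, beside 4.15% and 10.2% of all tested genes that rose and 6.6% and 19.6% that changed in either direction. Without vehicle replicates 5 and 6 the numbers were 2 and 2. *Derl3*, a derlin of the retrotranslocation channel, rose from 1.64 ± 0.83 CPM with vehicle to 4.24 ± 2.08 CPM with OCA (log2 1.38, SE 0.34, adjusted p = 0.0095). With INT-787 it averaged 1.89 ± 1.43 CPM, lower than with OCA (log2 -1.19, SE 0.34, adjusted p = 0.033), a call lost in 8 of 38 alternative fits. *Sel1l*, the adaptor of the HRD1 ubiquitin ligase, rose with INT-787 (0.29, SE 0.084, adjusted p = 0.014, passed under every alternative run) and with OCA (0.29, adjusted p = 0.030, lost in 14 of 39). *Edem1*, a mannosidase-like protein of the same route, also rose with both, with OCA by 0.32 (adjusted p = 0.014, lost in 1 of 39) and with INT-787 by 0.23 (adjusted p = 0.049, lost in 27 of 39). *Os9*, a lectin that hands over misfolded glycoproteins, rose with INT-787 (0.29, adjusted p = 0.040, lost in 12 of 39).

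Of 21 tested secretory pathway targets of XBP1, 4 differed between the drugs, all lower under INT-787, beside 3.19% of all tested genes that were lower and 5.38% that differed in either direction. The list median of that difference was -0.21 beside -0.0065 for all tested genes. Against vehicle, the list median was 0.17 with OCA, where 21 of 21 fold changes were above 0. With INT-787 it was 0.0095, where 11 of 21 were above 0. *Kdelr3*, a receptor that returns chaperones to the ER, was at 2.00 ± 0.57 CPM with vehicle, 2.84 ± 1.70 CPM with OCA, and 1.29 ± 0.47 CPM with INT-787 (INT-787 against OCA, log2 -1.13, SE 0.27, adjusted p = 0.010, passed under every alternative run). *Ostc*, a subunit of the oligosaccharyltransferase, was lower under INT-787 than under OCA (-0.44, adjusted p = 0.031, lost in 8 of 39 alternative fits) or vehicle (-0.41, adjusted p = 0.017, lost in 1 of 39). *Ssr1*, a translocon subunit, was at 137 ± 12.02 CPM with vehicle, 152 ± 12.9 CPM with OCA, and 117 ± 13.1 CPM with INT-787. It was lower under INT-787 than under OCA (-0.37, SE 0.074, adjusted p = 0.0024, passed under every alternative run) or vehicle (-0.22, adjusted p = 0.027, lost in 6 of 39). Neither *Ostc* nor *Ssr1* passed against vehicle without vehicle replicates 5 and 6. By contrast, *Sec31a*, a coat protein of ER export vesicles, rose with INT-787 (0.24, adjusted p = 0.015, lost in 1 of 39). *Spcs1*, a signal peptidase subunit, rose with OCA (0.28, adjusted p = 0.049), a call lost in 29 of 39 alternative fits. Without vehicle replicates 5 and 6, the number that passed was again 4 between the drugs, and it was 1 rather than 3 of 21 with INT-787, where 19.6% of all tested genes changed.

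**Figure D3:**
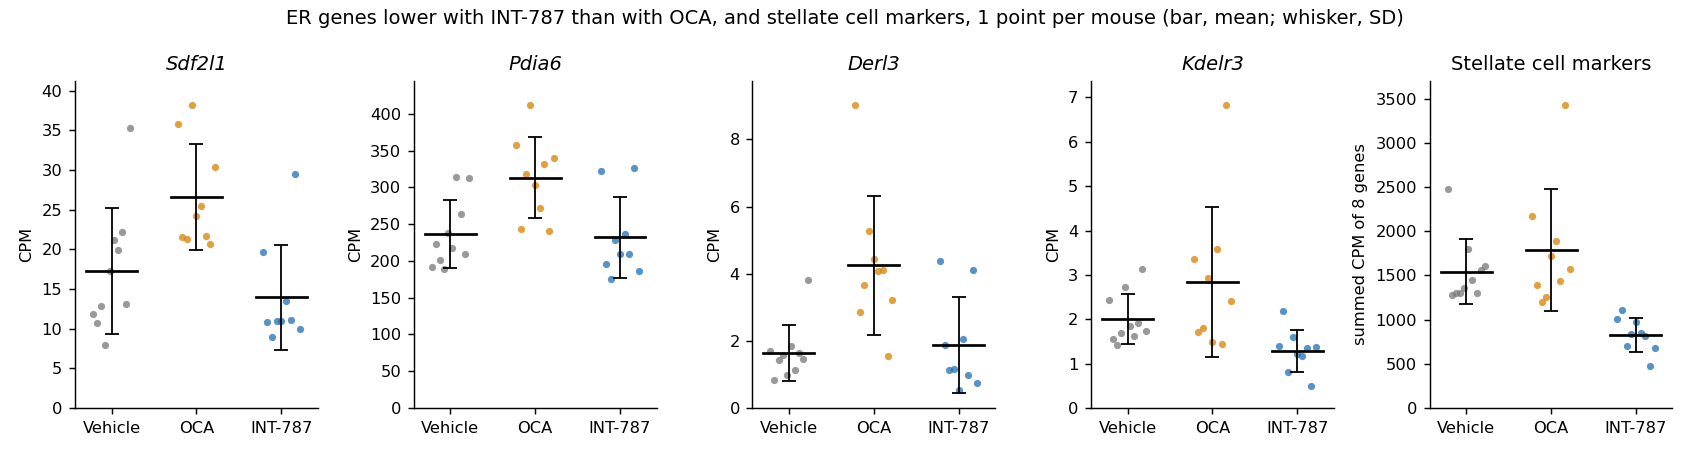
Levels in CPM of *Sdf2l1*, *Pdia6*, *Derl3*, and *Kdelr3* and, in the last panel, the summed CPM of 8 stellate cell markers, with 1 point per mouse, the mean as a bar, and the SD as a whisker. All 5 have a lower mean with INT-787 than with OCA, and for the marker sum no INT-787 mouse (476 to 1110) reaches the lowest OCA mouse (1199).

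These ER genes are used by every secreting cell, and the cell type markers differed between the groups as well. Of 8 stellate cell and myofibroblast markers, 5 fell with INT-787 relative to vehicle, and 5 differed between the drugs with the lower level under INT-787, beside 9.48% and 3.19% of all tested genes. One of them, *Lum*, a proteoglycan of the collagen matrix, also rose with OCA relative to vehicle (0.71, adjusted p = 0.047, lost in 27 of 39 alternative fits). The summed level of the 8 was 1277 to 2483 CPM (median 1403) in vehicle mice, 1199 to 3426 CPM (median 1567) with OCA, and 476 to 1110 CPM (median 837) with INT-787, so that the INT-787 mice did not overlap the others. The summed level of 5 B and plasma cell markers was low in all groups, at 3.47 to 12.3, 3.23 to 14.02, and 2.68 to 6.04 CPM in vehicle, OCA, and INT-787 mice, with means of 7.35, 6.79, and 4.51 CPM. Of the 3 that could be tested, *Cd79b*, part of the B cell receptor, fell with INT-787 (-0.86, adjusted p = 0.0053) and had a log2 fold change of -0.60 with OCA (adjusted p = 0.096). *Mzb1*, a plasma cell ER protein, was at 0 in 5 mice. Of 8 hepatocyte markers, 4 rose with each drug, beside 4.15% of all tested genes with OCA and 10.2% with INT-787, with summed medians of 90249, 134293, and 127599 CPM in vehicle, OCA, and INT-787 mice. Most of that sum was *Alb*, which averaged 74111, 114239, and 100982 CPM, where the summed means were 96153, 139167, and 124496 CPM. Of 8 macrophage markers, 3 fell with INT-787 relative to vehicle, of 8 endothelial markers 2, and of 6 cholangiocyte markers 2, beside 9.48% of all tested genes that fell and 19.6% that changed in either direction. Between the drugs, the macrophage markers *Trem2* (-0.90, adjusted p = 0.010) and *Cd68* (-0.61, adjusted p = 0.013) were lower with INT-787. Of the 6 cholangiocyte markers, *Spp1* alone differed between the drugs, lower with INT-787 (-1.12, adjusted p = 0.00013), and 5 did not pass. *Marco*, a scavenger receptor of macrophages, was higher with INT-787 (13.5 ± 23.5 CPM against 2.16 ± 2.30 CPM with OCA, log2 2.63, adjusted p = 0.037), a call lost in 14 of 38 alternative fits. None of 5 tested T and NK cell markers passed in edgeR, DESeq2, or limma-voom, and none had an unadjusted p under 0.05. The part of these markers in the results on *Sdf2l1*, *Derl3*, *Kdelr3*, and the other genes was not tested.

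Upstream of these targets, 2 of 10 UPR sensors and ER-membrane transcription factors passed with INT-787 and 1 of 10 with OCA, beside 19.6% and 6.6% of all tested genes. *Creb3l3*, a liver factor activated like ATF6 that drives acute phase and lipid genes, rose from 222 ± 35.4 CPM with vehicle to 278 ± 33.4 CPM with OCA (log2 0.33, SE 0.093, adjusted p = 0.025, lost in 4 of 39 alternative fits) and 315 ± 37.2 CPM with INT-787 (log2 0.51, SE 0.093, adjusted p = 0.00014). *Creb3l1*, a relative known from collagen-secreting cells, fell with INT-787 (-0.54, adjusted p = 0.033), a call lost in 8 of 39 alternative fits. A further list of 13 genes held eIF2 kinases, phosphatase subunits, eIF2B subunits, *Eif2s1*, which codes for a subunit of eIF2, and *Dnajc3*. *Dnajc3*, which codes for the PERK inhibitor P58IPK, rose with OCA (0.38, SE 0.091, adjusted p = 0.0071), the 1 of 13 that passed, beside 6.6% of all tested genes. The same gene was already counted among the ER chaperones that rose with OCA. With INT-787 0 of the 13 passed in edgeR, DESeq2, or limma-voom, beside 19.6% of all tested genes in edgeR, and 3 had an unadjusted p under 0.05 in edgeR, beside 32.3%.

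Among 16 tested amino acid synthesis and transport targets of ATF4, *Cth* stood out. It codes for cystathionine gamma-lyase, which makes cysteine, and was at 69.8 ± 15.5 CPM with vehicle, 155 ± 31.3 CPM with OCA, and 233 ± 64.5 CPM with INT-787. *Cth* rose with OCA (log2 1.14, SE 0.15, adjusted p = 3.16e-06) and INT-787 (log2 1.73, SE 0.15, adjusted p = 3.37e-10) and was higher with INT-787 than with OCA (0.59, adjusted p = 0.018). *Shmt2*, a mitochondrial serine hydroxymethyltransferase, rose with INT-787 (0.55, adjusted p = 8.98e-05) and was higher than with OCA (0.33, adjusted p = 0.043, lost in 17 of 39 alternative fits). *Psat1*, of serine synthesis, rose with OCA (0.95, adjusted p = 0.016), but not without OCA replicate 3 (adjusted p = 0.058), the mouse highest for *Asns*. *Pycr1*, of proline synthesis, was lower with INT-787 than with OCA (-1.07, adjusted p = 0.016, lost in 1 of 38). *Slc3a2*, the heavy chain of amino acid exchangers, fell with OCA (-0.35, adjusted p = 0.018, lost in 2 of 39) and with INT-787 (-0.27, adjusted p = 0.039, lost in 15 of 39). In each comparison with vehicle, 2 of the 16 rose and 1 fell, beside 6.6% of all tested genes that changed with OCA and 19.6% with INT-787, so the INT-787 count lay near the share of all genes. The list medians were 0.036 with OCA and -0.20 with INT-787.

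Among 17 stress effectors downstream of ATF4 and CHOP, 1 rose and 2 fell with INT-787, near the 10.2% and 9.48% of all tested genes that did so, and 1 fell with OCA, beside 2.45%. *Vegfa*, the endothelial growth factor, rose (0.40, adjusted p = 0.026, lost in 6 of 39 alternative fits), and *Tnfrsf10b*, a death receptor raised by CHOP (-0.87, adjusted p = 0.016, lost in 1 of 38), and *Stc2*, a secreted glycoprotein (-1.05, adjusted p = 0.031, lost in 8 of 38), fell. *Gdf15*, a secreted stress hormone, fell from 11.1 ± 3.08 to 5.73 ± 2.07 CPM with OCA (log2 -0.91, SE 0.19, adjusted p = 0.0013). Under INT-787 it averaged 8.82 ± 2.02 CPM (log2 -0.28 against vehicle, adjusted p = 0.30), and it was higher than with OCA (0.63, adjusted p = 0.040, lost in 12 of 39). Of 18 cytosolic aminoacyl-tRNA synthetases, many of them ATF4 targets, *Eprs* (0.34, adjusted p = 0.0014) and *Mars* (0.36, adjusted p = 0.017) rose with INT-787, near the 10.2% of all tested genes that rose. With OCA, where 6.6% of all tested genes changed, 0 of the 18 passed in edgeR, DESeq2, or limma-voom, and 1 had an unadjusted p under 0.05 in edgeR.

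**Figure D4:**
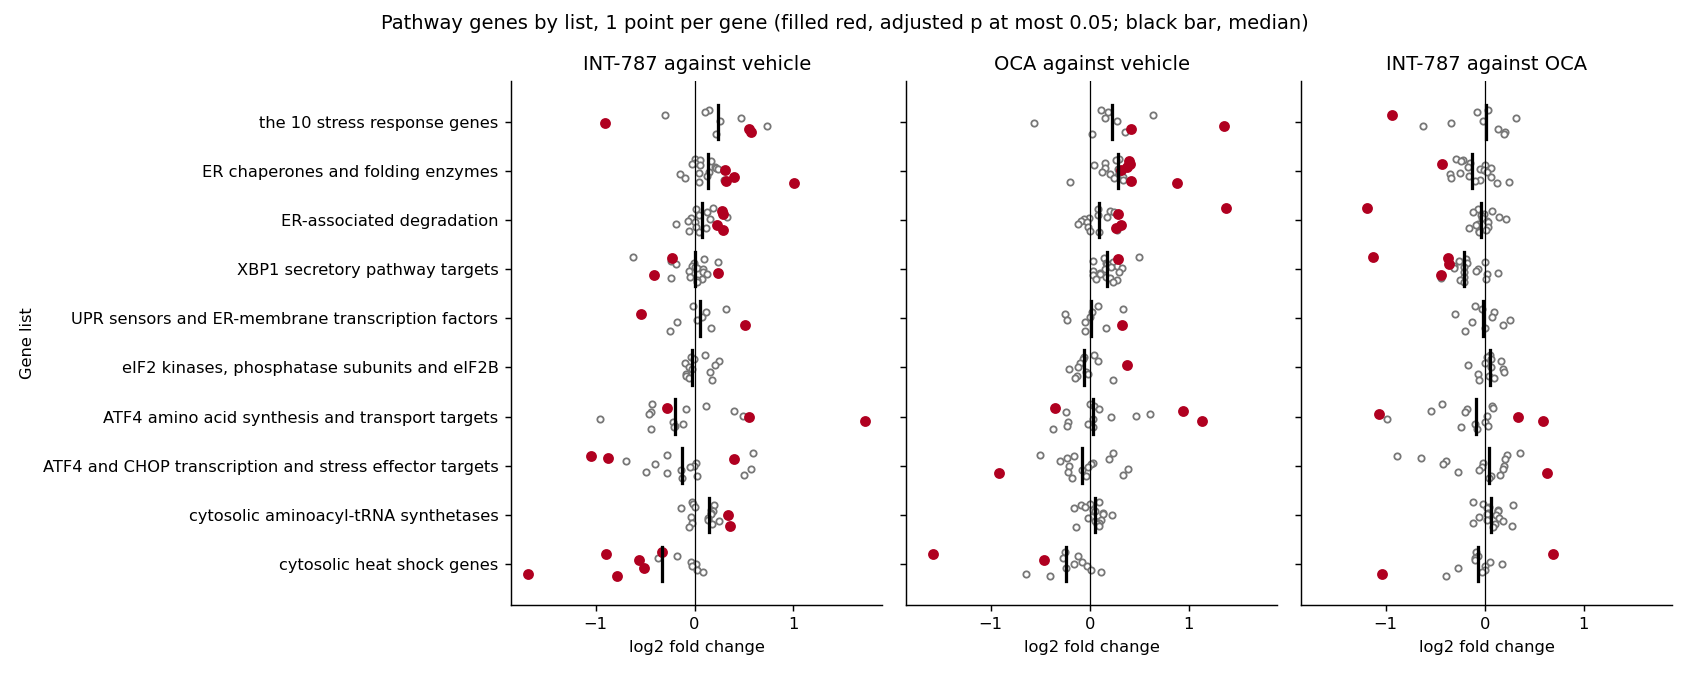
Log2 fold change of each tested gene by list (rows) for each drug against vehicle and for the drugs against each other, with filled red points for an adjusted p of at most 0.05 and a black bar at the list median. The ER chaperones and folding enzymes that passed lie to the right of 0 for both drugs (4 of 20 with INT-787 and 6 of 20 with OCA, beside 10.2% and 4.15% of all tested genes that rose), and the cytosolic heat shock genes that passed lie to the left (6 of 13 and 2 of 13, beside 9.48% and 2.45% that fell).

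Of 13 heat shock genes, 6 fell with INT-787 and 2 with OCA, beside 9.48% and 2.45% of all tested genes that fell. Most of the 13 serve folding in the cytosol under the factor HSF1, while *Hspd1* and *Hspe1* code for mitochondrial chaperonins. With INT-787 DESeq2 called 7 of the 13. The list was not tested against the ER chaperones. *Hspb1*, a small heat shock protein, fell from 40.9 ± 10.4 CPM to 13.7 ± 3.11 CPM with OCA (log2 -1.58, SE 0.14, adjusted p = 1.57e-09) and 21.97 ± 3.57 CPM with INT-787 (log2 -0.90, SE 0.14, adjusted p = 1.13e-05). *Hspa1b*, an inducible HSP70, fell from 7.29 ± 2.66 to 2.22 ± 0.79 CPM with INT-787 (log2 -1.68, SE 0.24, adjusted p = 3.76e-06) and was at 4.56 ± 1.63 CPM with OCA (adjusted p = 0.089). *Hspb1* was higher (0.69, adjusted p = 0.0031) and *Hspa1b* lower (-1.04, adjusted p = 0.0086) with INT-787 than with OCA. Reads of *Hspa1b* and its near-identical copy *Hspa1a*, both counted among the 6 that fell with INT-787, are hard to assign. *Hsp90aa1*, the inducible HSP90, fell with INT-787 (-0.56, adjusted p = 0.00047) and with OCA (-0.46, adjusted p = 0.0081). Many stress genes also follow the time of day, and of 13 clock output genes 3 rose with INT-787 and 1 with OCA, beside 10.2% and 4.15% of all tested genes that rose and 19.6% and 6.6% that changed in either direction. *Per2* (0.94, adjusted p = 0.0016), *Per3* (0.96, adjusted p = 0.014, lost in 1 of 38 alternative fits), and *Tef* (0.69, adjusted p = 0.0084) rose with INT-787, and *Tef* also with OCA (0.61, adjusted p = 0.040, lost in 14 of 39). With OCA *Per2* (0.63, adjusted p = 0.069) and *Per3* (0.87, adjusted p = 0.055) did not pass. The summed level of 14 clock genes was 474 to 706 CPM in vehicle mice, 660 to 817 CPM with OCA, and 578 to 836 CPM with INT-787. Its part in the results was not tested, and the hour of sampling is not given in the sources used here.

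Among mice of the same group, no pair of the 10 genes passed a test for varying together. Over 28 mice with group means removed, the 45 pairs had a Pearson r between -0.37 and 0.44 with a median of 0.0083, and 23 were positive. After Benjamini-Hochberg adjustment 0 of 45 pairs passed (permutation test, two-sided, 100000 resamples), and 5 had an unadjusted p under 0.05 for r and 6 for Spearman's rho. The highest r values, each 0.44, were those of *Xbp1* with *Asns* and *Dnajb9* and of *Atf4* with *Ddit3*. The lowest unadjusted p for both measures was that of *Hspa5* and *Xbp1*. This pair had r = 0.41 (permutation p = 0.014, adjusted 0.37) and rho = 0.45 (permutation p = 0.015, adjusted 0.32), and r = 0.48 without the 2 mice farthest from the median of *Hspa5*. Within groups its r was 0.71 in vehicle mice, 0.59 with OCA, and 0.018 with INT-787.

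Over the 28 mice and 9347 genes with a mean of at least 5 CPM, the genes most like *Hspa5* by Spearman's rho were *Manf*, an ER-resident survival factor (0.88), *Derl2*, a derlin (0.80), and *Sec23b*, a vesicle coat protein (0.72). Those most like *Asns* were *Psat1* (0.69), *Atxn7l3b* (0.68), and *Abca8a* (0.67). These values describe mice that share treatment groups and library depth.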

How the data were processed

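Liver messenger RNA was prepared by the authors with stranded libraries and aligned to GRCm38 with STAR. The authors deposited raw counts of reads per Ensembl gene, 1 column per mouse, without normalization; the counting program and its use of strand are not given in the sources used here. Of 21935 genes, 21858 matched a symbol in GENCODE M21. Groups came from the sample labels, and p-values measure the spread between mice.

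Counts were analysed with R 4.3.3 and edgeR 4.0.16 (filterByExpr, TMM, glmQLFit, and glmQLFTest) in 1 model of the 3 groups, with Benjamini-Hochberg adjustment across the 12580 tested genes. Alternatives used DESeq2 1.42.0 or limma 3.58.1 (voom), other scalings and filters, robust estimation, fewer groups, factors for replicate number or neighbouring sample numbers, and mice left out in turn. Python 3.11.15, pandas 2.3.3, numpy 2.4.6, and scipy 1.17.1 made the tables. The tests were tried on simulated data. The 3-count limit covers counting error only. No 2 libraries of the same group agreed within sampling noise.

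The members, lists, and alternatives were chosen with earlier results of these data known. Named genes were all 10 members, per list and comparison up to 2 changed genes at each end of the fold changes averaging 1 CPM or more, and the 3 genes most like *Hspa5* and *Asns*. Promoter sequences are from RefSeq (GRCm38.p6), and all 10 genes matched.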

Additional observations from a re-analysis of the deposited data

Results flagged for a closer look

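A mouse was marked where its gap to the nearest other mouse of its group was above Dixon's 95% critical value. Of 30 groups of values tested (10 genes in 3 groups), 6 held such a mouse, and chance marks about 1 in 20. *Xbp1* in OCA replicate 3 was at 292 CPM, with the next mouse at 199 CPM, and *Asns* in the same mouse was at 9.58 CPM, with the next at 5.59 CPM. *Dnajb9* in vehicle replicate 9 was at 77.7 CPM, with the next at 56.1 CPM. *Sdf2l1* in vehicle replicate 10 was at 35.3 CPM, with the next at 22.2 CPM. *Ddit3* was at 5.88 CPM in vehicle replicate 4, with the next at 4.05 CPM, and at 10.5 CPM in INT-787 replicate 8, with the next at 6.52 CPM.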

How the results depend on the processing

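The fold changes of the 10 genes in 3 comparisons were recomputed under each alternative, which gave 1164 values. Of these, 1124 kept the direction and side of the threshold, 8 kept the direction but no longer passed, 15 newly passed, and 17 changed sign, all of the last for values that did not pass.

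The number of the 10 genes changed with OCA was 2 in the reported test and 1 with at least 10 counts required in every mouse (*Herpud1*, since *Asns* and *Ddit3* left the table), 1 with only the 2 groups compared (*Asns*), and 1 without vehicle replicates 5 and 6 (*Asns*). In these last fits *Herpud1* had adjusted p = 0.063 and 0.072. With mice left out in turn, 3 to 4 of the 10 genes changed with INT-787, 1 to 3 with OCA, and 1 to 1 between the drugs, and among all genes 2116 to 2733, 666 to 936, and 443 to 888.

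The fold changes that turned sign were those of *Atf4* with OCA (-0.0083 under upper-quartile normalization, -0.0027 with the replicate block, and -0.060 to 0.065 with mice left out in turn), *Dnajb9* with OCA (-0.016 with neighbouring sample numbers as a factor), and, for INT-787 against OCA, *Hspa5* (0.046 with that factor, and -0.10 to 0.064 with mice left out), *Xbp1* (-0.11 to 0.018 with mice left out), and *Dnajb9* (-0.021 to 0.14 with mice left out). The cause was not tested.

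Replicate numbers were not taken to pair the mice, since not every pair with the same number had a correlation of deviations over 0.1: it ran from -0.24 to 0.43 (median 0.077), with 11 of 27 pairs over 0.1, and 9 of 27 mice were closest to their own number. For neighbouring sample numbers it ran from -0.20 to 0.43 (median 0.11), with 13 of 25 pairs over 0.1. With the replicate block, 3 of the 10 genes changed with OCA, *Sdf2l1* being added (0.87, adjusted p = 0.0070).

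Of 52 calls on named pathway genes 26 passed under every alternative, as did 15 of 23 calls on named marker genes. Depth limits *Asns*, *Ddit3*, and *Chac1* most, at 0, 4, and 10 counts in the shallowest vehicle mouse.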
